A study of Mus musculus with 6 samples.

Results

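NRF2, KEAP1 and the proteins that work with them are encoded in the mouse by the 8 genes Nfe2l2, Nfe2l1, Keap1, Cul3, Bach1, Mafg, Maff and Mafk, which were picked out of the 24879 lines of the deposited expression table by gene symbol alone. Each symbol stood on 1 line, and all 8 passed the filter for testing, a mean of at least 1 FPKM (a read count scaled for transcript length and for the library's mapped total) over the 6 libraries. The cells were 661W, a single mouse line from a retinal tumour, immortalised by SV40 T antigen under the photoreceptor promoter of IRBP and described as derived from cones. The Light group (3 libraries) was lit for 24 h at 2000 ± 100 lux by a cold white fluorescent lamp. The Dark group (3 libraries) spent the same 24 h without light. Both groups grew in DMEM with fetal bovine serum, and the comparison asks what illumination changes in the transcriptome. The labels do not say that the replicates were separate cultures, so a p-value here speaks only for the variation among these 6 libraries, part of which may be technical.

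NRF2, the product of Nfe2l2, switches on genes of antioxidant defence under oxidants and electrophiles. It is controlled mainly as a protein: KEAP1 holds it on the CUL3 ubiquitin ligase for destruction by the proteasome, and modified cysteines in KEAP1 let newly made NRF2 escape. In the nucleus NRF2 pairs with a small MAF protein (MAFG, MAFF or MAFK) on the antioxidant response element, where BACH1, a haem-sensitive repressor that also pairs with small MAFs, competes with it. NFE2L1 is a related factor anchored in the endoplasmic reticulum that, once processed, raises proteasome genes. Photoreceptors are among the cells in which this pathway is studied for its part in oxidative damage. The libraries measure transcripts only.

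Among all 11068 genes tested, 35.6% passed an adjusted p of 0.05 (limma on log2(FPKM + 1), Benjamini-Hochberg), with 19.2% higher and 16.4% lower in Light, and the groups did not overlap for 52.6%. FPKM summed to 459198 to 471471 per Light library and 411186 to 434372 per Dark library. With every library rescaled to the same total, 1212 genes were higher and 2902 lower, against 2128 and 1810 without rescaling, and the median change of all genes moved to -0.13 from -0.01. No read totals come with FPKM, so the depth is unknown. Of 9 cone markers 3 were at 0 in every library (Opn1mw, Arr3 and Pde6c) and 0 reached a mean of 1 FPKM, with summed levels of 1.01 to 1.37 FPKM in Light and 0.949 to 2.1 FPKM in Dark. Of 6 markers shared by rods and cones Rom1 alone reached it, and Otx2 and Rcvrn were at 0. The 5 fibroblast markers summed to 336 to 364 FPKM in Light and 680 to 787 FPKM in Dark, most of it Col1a1. Col1a1, Pdgfra and Col1a2 reached a mean of 1 FPKM, and Dcn and Lum did not. The 5 Müller glia markers summed to 34.8 to 36.4 FPKM in Light and 53.8 to 57.4 FPKM in Dark, and Glul and Slc1a3 alone reached a mean of 1 FPKM. The 7 rod markers summed to at most 0.278 FPKM. Markers of microglia, endothelium and retinal pigment epithelium summed to at most 1.47 FPKM in any library. What part the fibroblast and glial markers have in the changes below was not tested.

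The 250 bases before the RefSeq transcription start (GRCm38.p6, the assembly also called mm10) are shown for the genes whose windows held a searched motif, since 3 of these genes, the small MAFs, rose together. All 8 genes matched the RefSeq table, with 14 windows in all, 5 of Nfe2l1, 3 of Maff and 1 of each other gene. Capitals mark the match to a motif.
Nfe2l2, chr2:75704664-75704913, minus strand: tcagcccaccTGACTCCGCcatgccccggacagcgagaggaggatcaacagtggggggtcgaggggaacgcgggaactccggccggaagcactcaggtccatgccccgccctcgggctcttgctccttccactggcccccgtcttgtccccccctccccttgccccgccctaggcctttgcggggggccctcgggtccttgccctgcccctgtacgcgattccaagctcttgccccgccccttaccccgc
Mafg, chr11:120633548-120633797, minus strand: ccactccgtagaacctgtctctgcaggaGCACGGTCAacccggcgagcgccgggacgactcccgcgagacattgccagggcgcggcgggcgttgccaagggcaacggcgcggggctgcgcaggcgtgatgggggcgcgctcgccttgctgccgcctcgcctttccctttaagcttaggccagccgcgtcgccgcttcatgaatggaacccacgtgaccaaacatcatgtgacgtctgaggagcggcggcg
Mafk, chr5:139791286-139791535, plus strand: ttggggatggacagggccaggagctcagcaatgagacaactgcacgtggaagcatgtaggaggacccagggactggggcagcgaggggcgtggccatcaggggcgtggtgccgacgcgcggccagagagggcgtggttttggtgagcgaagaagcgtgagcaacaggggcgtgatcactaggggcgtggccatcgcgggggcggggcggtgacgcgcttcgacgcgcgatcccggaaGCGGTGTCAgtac
Maff first start, chr15:79346371-79346620, plus strand: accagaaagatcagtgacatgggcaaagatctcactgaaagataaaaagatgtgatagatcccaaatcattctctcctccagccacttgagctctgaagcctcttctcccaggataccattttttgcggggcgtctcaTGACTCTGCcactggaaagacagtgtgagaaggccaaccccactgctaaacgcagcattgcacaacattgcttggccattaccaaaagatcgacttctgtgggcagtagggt
Maff second start, chr15:79347270-79347519, plus strand: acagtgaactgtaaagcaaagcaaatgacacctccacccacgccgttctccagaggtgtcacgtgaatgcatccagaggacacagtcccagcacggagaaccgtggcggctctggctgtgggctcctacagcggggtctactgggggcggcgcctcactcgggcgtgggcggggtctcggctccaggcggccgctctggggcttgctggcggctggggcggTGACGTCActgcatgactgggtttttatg
The core of the antioxidant response element, TGACNNNGC, was searched on both strands and matched 4 of the 14 windows (28.6%), against 10.2% of 32851 windows of all genes. It lay 240 to 232 bases before the start of Nfe2l2, 112 to 104 bases before the first start of Maff, and on the opposite strand 222 to 214 bases before the start of Mafg and 13 to 5 bases before that of Mafk. The cyclic AMP response element TGACGTCA matched 1 of the 14 windows, 29 to 22 bases before the second start of Maff, against 1.55% of all windows. Neither the AP-1 element TGACTCA (4.46% of all windows), whose first letters the antioxidant core shares, nor the xenobiotic response element TNGCGTG (4.1%) was found in the 14 windows. No match to any of the 4 was found in the windows of Nfe2l1, Keap1, Cul3 and Bach1 or at the third start of Maff. These are matches of letters, and binding was not measured.

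Illuminated cells carried more small MAF and Nfe2l1 transcript and less Cul3 transcript, while the level of Nfe2l2 itself did not pass the test. Of the 8 genes 4 rose (Maff, Mafk, Mafg and Nfe2l1), 1 fell (Cul3) and 3 were not called (Nfe2l2, Keap1 and Bach1), beside the 35.6% of all genes called. The calls of the small MAFs held in all 15 alternative ways of processing, that of Cul3 in 10 and that of Nfe2l1 in 9. The median log2 change of the 8 was 0.26, against -0.01 over all genes tested. All changes below are Light minus Dark of log2(FPKM + 1), a scale that shrinks the change of poorly expressed genes. The groups did not overlap for the 5 called genes, beside 52.6% of all genes. In libraries of whole cultures, fewer cells with a transcript and less of it per cell cannot be told apart.

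**Figure D1:**
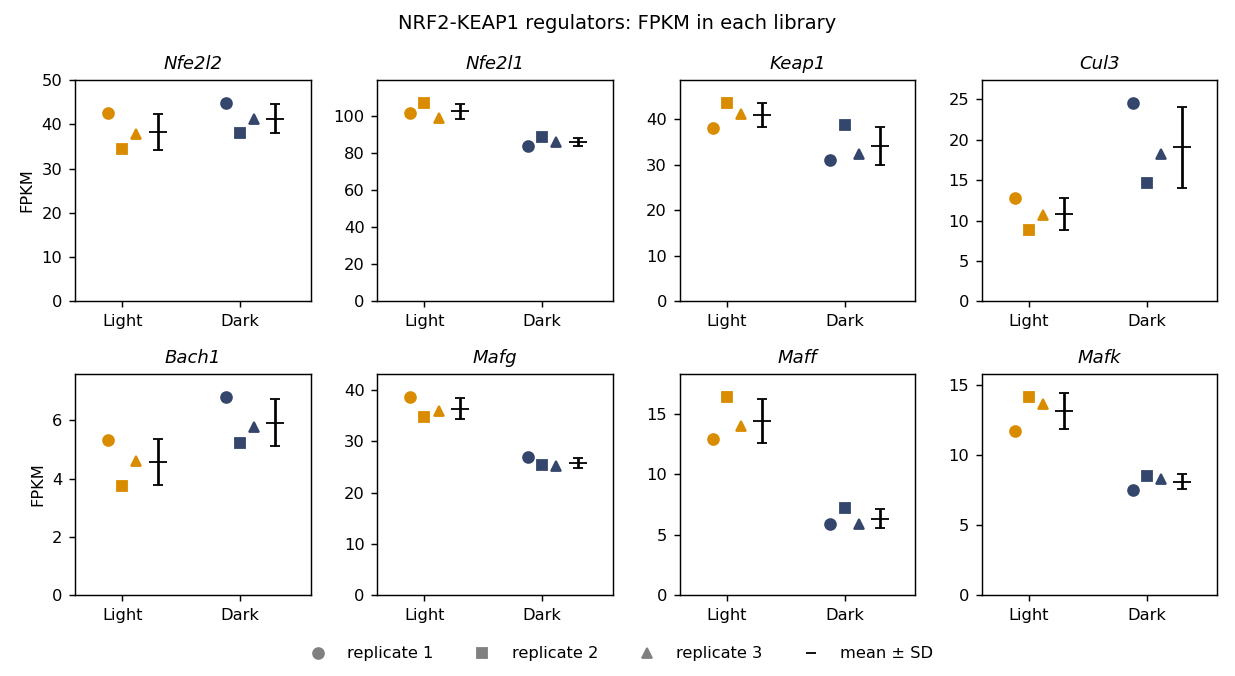
FPKM (vertical axis of each panel, from 0) of the 8 regulators in each of the 3 Light and 3 Dark libraries, with symbols for the replicate number and a black bar for the mean ± SD. Maff, Mafk, Mafg and Nfe2l1 lie wholly higher in Light and Cul3 wholly lower, while Nfe2l2, Keap1 and Bach1 overlap.

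Nfe2l2 (ENSMUSG00000015839; mm10 chromosome 2, 75675513 to 75704641, minus strand, protein-coding) had 42.5, 34.5 and 37.9 FPKM in Light replicates 1, 2 and 3, against 44.7, 38.0 and 41.2 FPKM in Dark replicates 1, 2 and 3. The groups overlap, since Light 1 stands above Dark 2 and Dark 3. Its means were 38.3 ± 4.06 FPKM in Light and 41.3 ± 3.35 FPKM in Dark (SD, n = 3 each), a log2 change of -0.11 ± 0.10 (SE) with a limma adjusted p of 0.383. The 95% interval of the change ran from -0.33 to 0.12 (log2), so a rise of the size of Mafg's lies outside it and a modest fall inside it. The change was -0.25 to 0.02 over the alternatives, and only the fit without Dark 1 and Light 2 gave a positive sign.

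Keap1, which encodes the cysteine-rich adaptor that delivers NRF2 to the ligase (ENSMUSG00000003308; chromosome 9, 21229730 to 21239361, minus strand), had 38.2, 43.5 and 41.2 FPKM in Light 1, 2 and 3, against 31.0, 38.8 and 32.5 FPKM in Dark 1, 2 and 3. Light 1 is the lowest of the lit libraries and lies just under Dark 2, the highest unlit one. The log2 change was 0.26 ± 0.10 (SE), with a 95% interval of 0.04 to 0.49 and a limma adjusted p of 0.0679. Without Dark 2 the change was 0.36 and passed (limma adjusted p = 0.00952), in a fit that called 5874 of 11068 genes, against 3938 in the main fit. Without any other single library it was 0.20 to 0.31 and did not pass (limma adjusted p of 0.0687 to 0.206). It was 0.16 without Dark 1 and Light 2 together (0.354) and 0.12 in the rescaled libraries. An antisense gene, Gm16754, overlaps Keap1 in GENCODE and was not on a line of the table. The strand setting of the read counting is not given in the sources used here, so reads of the pair cannot be told apart.

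Cul3, the cullin scaffold that joins KEAP1 to the ubiquitin-transferring RING subunit (ENSMUSG00000004364; chromosome 1, 80264923 to 80340480, minus strand), had 12.8, 8.81 and 10.7 FPKM in Light 1, 2 and 3, against 24.5, 14.6 and 18.2 FPKM in Dark 1, 2 and 3. All 3 lit libraries lie under all 3 unlit ones, but Dark 1 stands well above Dark 2. Cul3 fell to 0.563 of its Dark mean, a log2 change of -0.76 ± 0.19 (SE, n = 3 each; limma adjusted p = 0.0249). The change was -0.57 without Dark 1 and -0.33 once each library's trend with transcript length and GC content was removed, with the call kept in both (adjusted p = 0.0341 and 0.00613). The limma call was lost without Light 2 (adjusted p = 0.0917), Light 3 (0.0815) or Dark 3 (0.0773) and without Dark 1 and Light 2 together (-0.45, 0.062), in a range of 4.03e-06 to 0.0917 over all alternatives.

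Nfe2l1, the most abundant of the 8 transcripts (ENSMUSG00000038615; chromosome 11, 96817414 to 96829968, minus strand), rose modestly. It had 102, 107 and 99.2 FPKM in Light 1, 2 and 3, against 84.2, 88.6 and 86.2 FPKM in Dark 1, 2 and 3. No lit library reaches down to an unlit one, and the spread within each group is narrow. The means were 103 ± 4.16 FPKM in Light and 86.3 ± 2.2 FPKM in Dark (SD, n = 3 each), a log2 change of 0.25 ± 0.06 (SE; limma adjusted p = 0.0215). The rise depended on scaling, at 0.11 with quantile normalization (adjusted p = 0.123) and 0.11 with the libraries rescaled to one total (0.104), where the median of all genes stood at -0.13. The limma call was also lost without Light 2 (0.0917), Light 3 (0.0681) or Dark 3 (0.0839), in a range of 0.00123 to 0.143 over all alternatives.

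Bach1, the gene of the haem-sensitive repressor (ENSMUSG00000025612; chromosome 16, 87698945 to 87733346, plus strand), was the least abundant of the 8. It had 5.33, 3.74 and 4.62 FPKM in Light 1, 2 and 3, against 6.79, 5.21 and 5.76 FPKM in Dark 1, 2 and 3. Light 1 lies above Dark 2, so the groups overlap by a single pair. The log2 change was -0.32 ± 0.14 (SE, n = 3 each), its 95% interval ran from -0.64 to 0.00, and it was not called (limma adjusted p = 0.101). With the trend of length and GC content removed it was -0.12, and over all alternatives it was -0.44 to -0.12.

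The small MAF genes encode short bZIP proteins with no activation domain of their own, which form the other part of each NRF2, NFE2L1 or BACH1 dimer. All 3 rose, and each was called in all 15 alternatives. Maff (ENSMUSG00000042622; chromosome 15, 79346621 to 79359076, plus strand) rose most, with 12.9, 16.4 and 14 FPKM in Light 1, 2 and 3, against 5.86, 7.23 and 5.91 FPKM in Dark 1, 2 and 3. Every lit value is far above every unlit one. Its mean was 2.28 times the Dark mean, a log2 change of 1.07 ± 0.11 (SE; limma adjusted p = 0.00115; 0.80 to 1.17 over the alternatives), higher than the change of 99.3% of all genes tested.

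Mafk (ENSMUSG00000018143; chromosome 5, 139791513 to 139802653, plus strand) had 11.7, 14.1 and 13.6 FPKM in Light 1, 2 and 3, against 7.48, 8.51 and 8.24 FPKM in Dark 1, 2 and 3. Light 2 was highest and Dark 1 lowest, and the groups lie apart. The log2 change was 0.64 ± 0.09 (SE, n = 3 each; limma adjusted p = 0.00401; 0.45 to 0.72 over the alternatives). The neighbouring Tmem184a overlaps the end of Mafk on the opposite strand, but stood at 0.105 to 0.384 FPKM in Light and 0.0274 to 0.191 FPKM in Dark.

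Mafg (ENSMUSG00000051510; chromosome 11, 120625117 to 120633600, minus strand), the most abundant small MAF, had 38.6, 34.7 and 35.9 FPKM in Light 1, 2 and 3, against 26.9, 25.4 and 25.1 FPKM in Dark 1, 2 and 3. Here Light 1 was the highest lit library, where for Maff and Mafk it was the lowest. The log2 change was 0.48 ± 0.07 (SE, n = 3 each; limma adjusted p = 0.00326; 0.34 to 0.54 over the alternatives). Sirt7, a deacylase gene on the same strand, overlaps the end of Mafg and had 26.1 to 30.6 FPKM in Light and 23.3 to 24.8 FPKM in Dark. How the authors divided reads in the overlap is not given in the sources used here.

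Summed, the 3 small MAF transcripts stood at 63.2 to 65.2 FPKM in Light, against 39.3 to 41.1 FPKM in Dark, a description over chosen genes. Maff made up 20.4% to 25.1% of that sum in Light and 14.6% to 17.6% in Dark. Mafg made up most, at 53.3% to 61.1% in Light and 61.7% to 66.8% in Dark, while Mafk held 18.5% to 21.6% in Light and 18.6% to 21% in Dark. Nfe2l2 and Nfe2l1 together stood at 2.16 to 2.29 times the small MAF sum in Light, against 3.08 to 3.24 times in Dark. The ranges of this last ratio do not overlap.

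**Figure D2:**
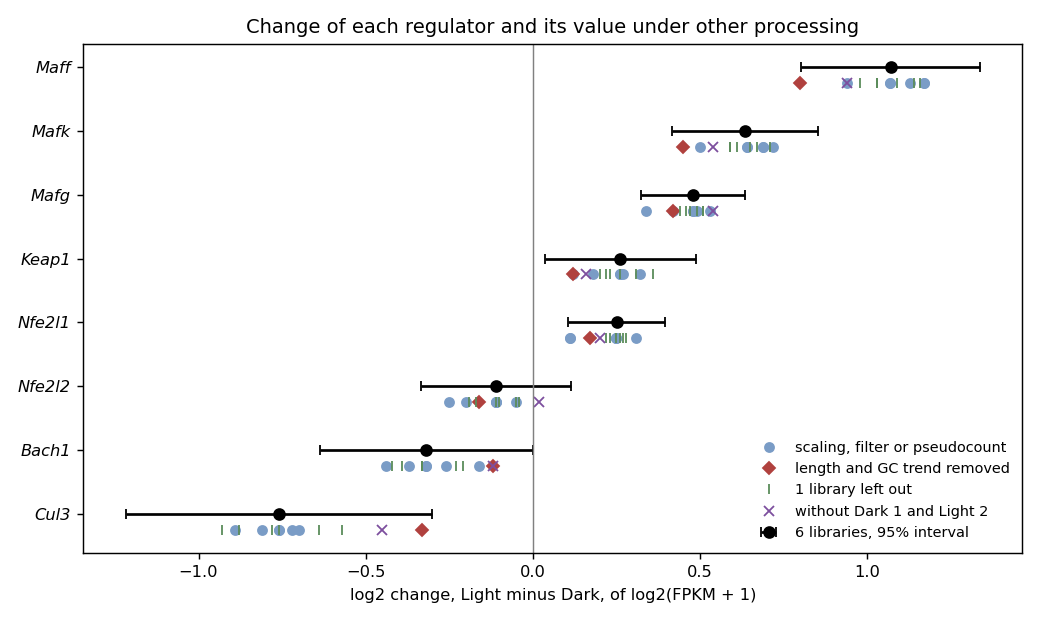
Log2 change of each regulator, Light minus Dark, with its 95% limma interval (black), and the same value under other processing (coloured marks below). The 3 small MAFs stay between 0.34 and 1.17, Cul3 moves between -0.93 and -0.33, and Nfe2l2 crosses 0.

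In order of FPKM, a level per transcript length, Light cells had Nfe2l1 at 103, Keap1 at 41.0, Nfe2l2 at 38.3, Mafg at 36.4, Maff at 14.4, Mafk at 13.1, Cul3 at 10.7 and Bach1 at 4.56. Keap1, Nfe2l2 and Mafg overlapped their neighbours in that order, as did Maff, Mafk and Cul3, while Nfe2l1 stood clear above and Bach1 clear below. In Dark cells the order was Nfe2l1 at 86.3, Nfe2l2 at 41.3, Keap1 at 34.1, Mafg at 25.8, Cul3 at 19.1, Mafk at 8.08, Maff at 6.33 and Bach1 at 5.92. There Nfe2l2 overlapped Keap1 and Maff overlapped Bach1, and the other neighbours did not overlap. Cul3 therefore stood above Maff and Mafk in every Dark library, whereas in Light its 3 values reached no higher than 12.8 FPKM and Maff started at 12.9.

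Ratios within a library do not depend on how libraries are scaled, and 5 were compared. The exact 2-sided permutation test of 3 against 3 libraries cannot give a p below 0.1, so none could pass 0.05. Keap1 over Cul3 stood at 2.99, 4.93 and 3.87 in Light 1, 2 and 3, against 1.26, 2.66 and 1.79 in Dark 1, 2 and 3. The lit values are all higher, by 1.08 ± 0.37 on the log2 scale (SE, n = 3 each; exact p = 0.1; 0.1667 adjusted over the 5). Without Dark 1 and Light 2 the difference was 0.64, and this pair holds the members of highest and lowest GC content, Keap1 at 58.0% and Cul3 at 38.5%. With the length and GC trend removed, the changes of Keap1 and Cul3 were 0.12 and -0.33. Nfe2l2 over Bach1 averaged 8.46 ± 0.653 in Light and 7.01 ± 0.377 in Dark (SD, n = 3 each), without overlap (exact p = 0.1; 0.1667 adjusted). With the length and GC trend removed, however, the changes of Nfe2l2 and Bach1 were close, at -0.16 and -0.12. Their longest annotated transcripts differ in length, at 2475 and 5867 bases. Across 10664 genes Light minus Dark fell with that length (Spearman rho -0.46, a description across genes). Nfe2l1 over Nfe2l2 averaged 2.71 ± 0.366 in Light and 2.1 ± 0.224 in Dark (SD, n = 3 each), also without overlap (exact p = 0.1; 0.1667 adjusted). The groups stood close there, at 2.4 in Light 1 and 2.33 in Dark 2. Without Dark 1 and Light 2 the log2 difference went from 0.27 to 0.16 for Nfe2l2 over Bach1. For Nfe2l1 over Nfe2l2 it went from 0.37 to 0.18, and these 2 genes also differ in GC content, at 54.4% and 46.8%.

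The ratio of Nfe2l2 to Keap1, the regulated factor to its adaptor, was 1.11, 0.793 and 0.919 in Light 1, 2 and 3, against 1.44, 0.98 and 1.27 in Dark 1, 2 and 3. Light 1 exceeds Dark 2, so the groups overlap (exact p = 0.2; 0.25 adjusted). Mafg over Mafk averaged 2.8 ± 0.449 in Light and 3.21 ± 0.336 in Dark (SD, n = 3 each), with overlap (exact p = 0.3; 0.3 adjusted). All 5 kept their sign in every left-out library.

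**Figure D3:**
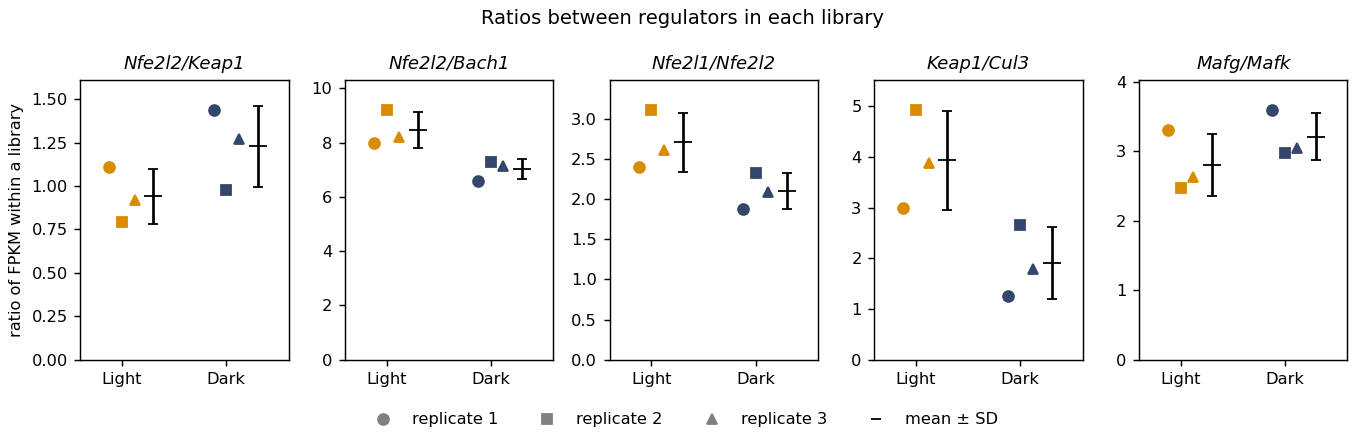
Ratio of FPKM between pairs of regulators within each library (vertical axes from 0), for 3 Light and 3 Dark libraries, with the mean ± SD in black. Keap1/Cul3, Nfe2l2/Bach1 and Nfe2l1/Nfe2l2 lie wholly higher in Light, and the other ratios overlap.

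The spread within groups followed base composition, and the 8 genes differ in it. Across 10664 genes, Dark 1 minus Dark 2 fell with the GC content of the longest annotated transcript (Spearman rho -0.69, a description across genes), as did Light 1 minus Light 2 (-0.61), while Light minus Dark rose with it (0.47). Cul3, at 38.5% GC, is lower than all but 2.54% of tested genes. Its Dark 1 and Dark 2 values differed by 0.71 on the log2 scale, nearly as much as Light and Dark. Bach1 and Nfe2l2, at 46.7% and 46.8% GC, differed by 0.33 and 0.23 between Dark 1 and Dark 2, and by 0.42 and 0.30 between Light 1 and Light 2.

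At the other end, Keap1 (58.0% GC) stood at -0.32 in Dark 1 minus Dark 2, Maff (57.6%) at -0.26 and Mafk (56.2%) at -0.16, while Mafg (54.9%) and Nfe2l1 (54.4%) stood at 0.08 and -0.07. The changes with the length and GC trend removed were 0.80 for Maff, 0.45 for Mafk, 0.42 for Mafg, 0.17 for Nfe2l1, 0.12 for Keap1, -0.12 for Bach1, -0.16 for Nfe2l2 and -0.33 for Cul3. Of these Maff, Mafk, Mafg, Nfe2l1 and Cul3 were called (limma adjusted p at most 0.0197), the same 5 genes as without the correction.

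**Figure D4:**
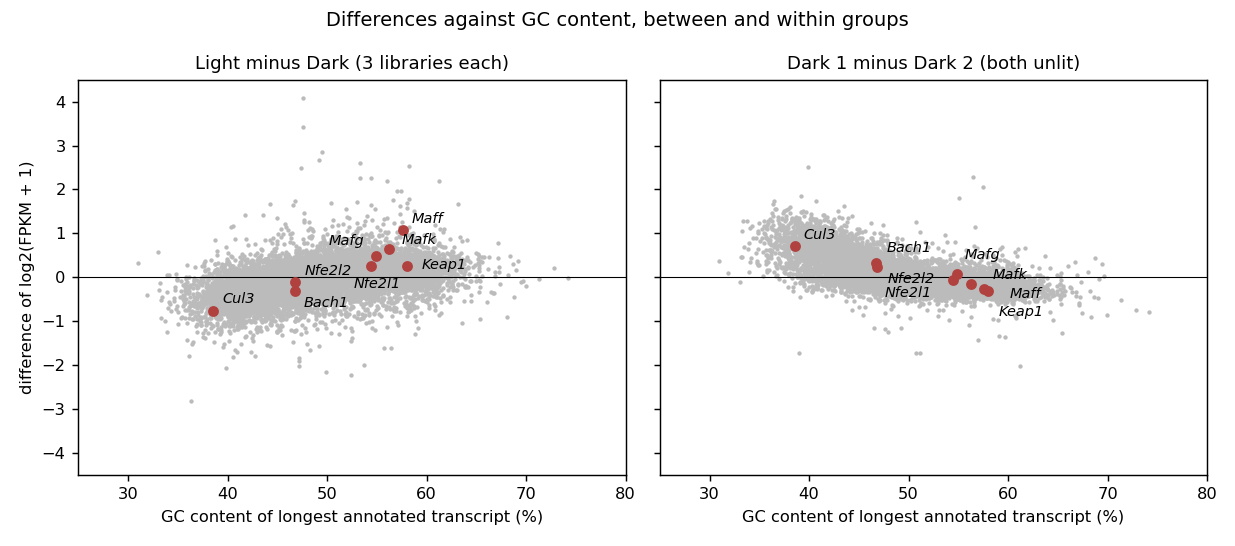
Difference of log2(FPKM + 1) against GC content in percent for 10664 tested genes (grey) and the 8 regulators (red), between Light and Dark (left) and between the unlit libraries Dark 1 and Dark 2 (right). Cul3 lies at the low-GC end in both panels, at -0.76 on the left and 0.71 on the right, and Maff lies near the upper edge of the cloud at 1.07 on the left.

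Among the relatives of the 8 factors 1 of 3 tested genes changed, beside 35.6% of all genes. Maf, a large MAF factor with an activation domain, fell to 6.08 ± 0.49 FPKM in Light, against 12.2 ± 0.732 FPKM in Dark (SD, n = 3 each; log2 change -0.90, limma adjusted p = 0.000769). Mafa stood at 0.02 and was not called. Bach2, Nfe2 and Nfe2l3, the closest paralogs of the factors named above, were under the test's filter, and Nrl was listed at 0 in every library. Bach2 stood at 0.334 to 0.482 FPKM in Light and 1.01 to 1.44 FPKM in Dark, levels too low for the main fit. With no filter 2 of 6 tested relatives were called, both lower in Light, beside 2606 of 19300 genes in that fit, 1109 of them lower.

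Of 16 genes of the ligase machinery that loads, neddylates and exchanges cullins, 2 rose and 0 fell, beside 19.2% and 16.4% of all genes, with a median of 0.08. Those called, Gps1 (0.28) and Cops8 (0.20), encode subunits of the COP9 signalosome, which takes NEDD8 off cullins. Both calls were lost in 10 of 15 alternatives, and with libraries rescaled to one total the counts were 0 and 2. Of 8 proteins that bind KEAP1 or NRF2, 3 were higher in transcript and 2 lower, beside 19.2% and 16.4% of all genes. Sqstm1, the gene of the receptor p62 that displaces NRF2 from KEAP1, stood at 736 ± 80.8 FPKM in Light and 277 ± 31.6 FPKM in Dark (SD, n = 3 each; log2 change 1.40, limma adjusted p = 0.000425). Cdkn1a, whose product p21 binds NRF2, rose by 2.27, and Pgam5, a mitochondrial KEAP1 partner, by 0.25, while Amer1 (-0.44) and Nes (-0.21) fell. The calls of Pgam5, Amer1 and Nes were lost in 10, 6 and 6 of their alternatives.

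KEAP1-independent turnover of NRF2 runs through GSK3 phosphorylation and the β-TrCP ligase, and through other ligases. Of 10 such genes 2 rose and 2 fell, near the 19.2% and 16.4% of all genes, with a median of -0.10. Gsk3a (0.28) and Btrc (0.26) were higher, Gsk3b (-0.55) and Syvn1 (-0.31) lower. Each of these calls was lost in some alternatives, 10 of 15 for Gsk3a, 8 for Btrc, 5 for Gsk3b and 4 for Syvn1. Among 12 genes for the extraction, deglycosylation, cleavage and turnover of NFE2L1, 2 rose (Nploc4 by 0.26, Derl1 by 0.22) and 3 fell, again near the 19.2% and 16.4% of all genes, with a median of -0.09 that turned to 0.04 once the length and GC trend was removed and to 0.02 without Dark 1. Those that fell were Ngly1, the gene of the deglycosylating enzyme (-0.52), Syvn1, and Hcfc1 (-0.26). Nploc4 and Derl1 were each called in 5 of 15 alternatives, Ngly1 in 8 of 14 and Hcfc1 in 9 of 15. With libraries rescaled to one total, 0 rose and 3 fell among the turnover genes and 0 rose and 5 fell among the maturation genes, and without Dark 1 and Light 2 neither list had a call. Ddi2, which encodes the protease that cleaves NFE2L1, was not called (-0.14, limma adjusted p = 0.176).

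Of 9 nuclear cofactors and antagonists of NRF2, 5 fell and 1 rose, beside 16.4% and 19.2% of all genes, with a median of -0.35. The median was -0.49 to -0.12 over the alternatives. It was smallest with the filter at 5 FPKM, where 3 fell and 1 rose of 7 tested. Crebbp and Chd6, at 2.83 and 2.80 FPKM in Light, are not in that fit. Crebbp and Ep300, the genes of the acetyltransferases CBP and p300 that NRF2 recruits, fell by 0.73 and 0.60, and the chromatin remodeller gene Chd6 by 0.66. Their transcripts are long, at 10820, 9566 and 10515 bases, and with the trend of length and GC content removed Crebbp, Ep300 and Chd6 stood at -0.46, -0.35 and -0.32. Rara, a retinoic acid receptor gene, also fell, and Esrra, a nuclear receptor gene, rose by 0.39. The calls of Chd6 and Esrra were each lost in 3 alternatives.

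Target genes of these factors were read in the same libraries. Of 29 tested NRF2 targets 28 rose and 0 fell, beside 19.2% and 16.4% of all genes, with a median log2 change of 0.87 (0.66 to 0.94 over the alternatives). The largest changes were 4.09 for Gsta1, whose reads may be shared with near-identical paralogs, 2.68 for Gsta4 and 2.60 for Aldh3a1, and Txn1 was the 1 not called (0.15). Gsta3 was too low to test. Of 9 genes of haem and iron handling that BACH1 represses, 8 rose and 0 fell, with a median of 0.99. These include Hmox1 (2.27), the ferritin gene Ftl1 (1.70) and the haem transporter gene Slc48a1 (1.35), and Fech was not called (-0.10). The 2 lists share Hmox1, Ftl1, Fth1 and Blvrb.

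Proteasome subunit genes, the known targets of NFE2L1, rose in 23 of 32 cases and fell in 0, beside 19.2% and 16.4% of all genes, with a median of 0.34. Psmb3, Psmb5 and Psmb6, of the core particle, rose by 0.64, 0.58 and 0.51. The median was 0.14 with the length and GC trend removed (17 higher, 1 lower) and 0.20 with libraries rescaled to one total (17 higher, 0 lower). Without Light 2, Light 3 or Dark 3, or without Dark 1 and Light 2 together, 4 were called, and the median then stood at 0.28 to 0.35. All of these lists were chosen with earlier results of these data known, so their directions are not independent evidence.

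**Figure D5:**
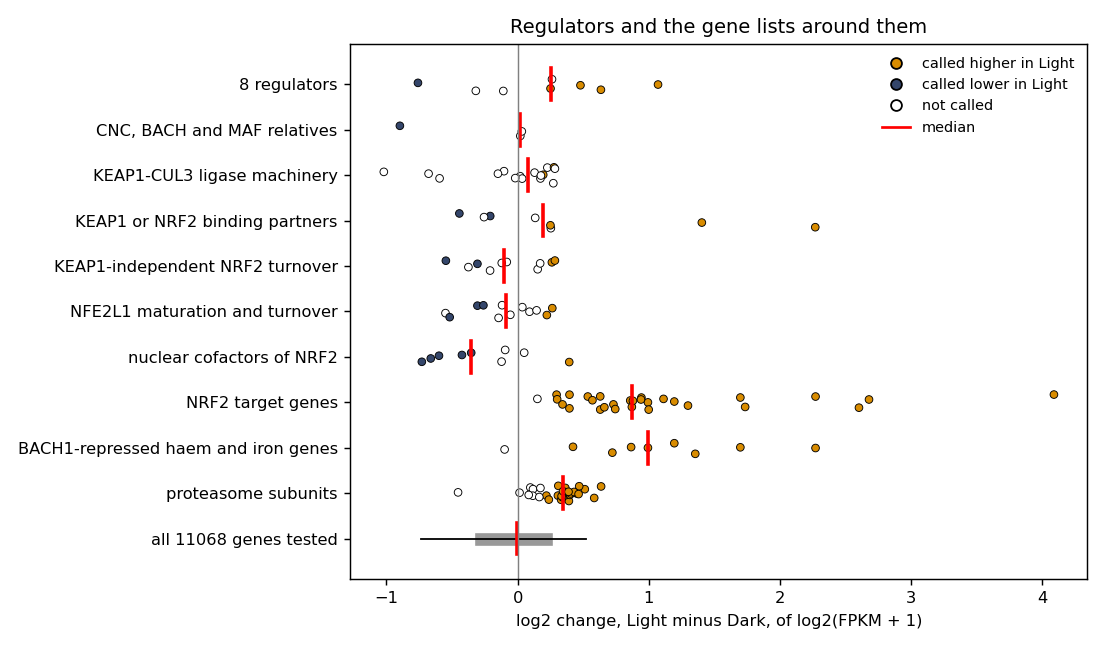
Log2 change, Light minus Dark, of the 8 regulators and of each gene list (1 point per tested gene, orange called higher, blue called lower, white not called, red bar the median), with all 11068 genes below (thick bar the middle 50%, thin line the middle 90%). NRF2 targets and BACH1-repressed genes lie nearly all to the right, with medians of 0.87 and 0.99, and the nuclear cofactors mostly to the left, at -0.35.

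The 6 libraries also gave a pattern for each regulator, to which other genes could be compared by Pearson r of log2(FPKM + 1), as a description over the 3 Light and 3 Dark libraries. Closest to Nfe2l2 were Zdhhc2 (0.9974), Qtrt2 (0.9885) and Cenpi (0.9878). Among the closest to Keap1 were Uba1 (0.9987) and Fen1 (0.9983), and closest to Bach1 were N4bp1 (0.9998), Usp38 (0.9974) and Patl1 (0.9973). None of these 8 genes was called, an outcome largely set by choosing them for likeness to regulators that were not called. An r over 0.95 was reached by 91 of the 8230 named genes averaging 5 FPKM or more for Nfe2l2, 917 for Keap1 and 686 for Bach1.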

How the data were processed

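RNA of 661W cells was extracted with TRIzol and made into libraries with an mRNA kit, per the labels' protocols. The submitters' processing notes name HISAT2 and the build mm10. Which program and annotation gave the FPKM is not given in the sources used here. Per the file headers, the authors deposited 1 table of FPKM, and the 6 single-library files held the same values. Groups and replicate numbers were read from the sample titles.

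In 520 low genes at most 0.77% shared 1 ratio between libraries, so whole reads could not be recovered from the FPKM. Genes averaging 1 FPKM or more were tested with limma 3.58.1 (R 4.3.3) on log2(FPKM + 1), where 1 is the pseudocount (trend and robust options, 2-sided, group as the only term), with Benjamini-Hochberg adjustment over 11068 genes and a threshold of 0.05. The procedure was tested on simulated data, with noise drawn separately for each gene. That noise lacked the trend with GC content that real libraries share across genes, so the simulation cannot speak for calls under that trend. Ratios were tested exactly in SciPy 1.17.1. GENCODE M21 (mm10) gave gene spans and the length and GC content of transcripts, in which 22022 of 22036 Ensembl identifiers were found. Promoters came from RefSeq, GRCm38.p6.

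Alternatives were a pseudocount of 0.1, quantile normalization, median centring, no filter, a filter at 5 FPKM, rescaling to one FPKM total, removal of each library's loess trend (span 0.5) with length and GC content, the replicate block, each library left out, and both Dark 1 and Light 2 left out, which for ratios was added after the data were seen. All 8 members are named, with up to 3 called genes per list and direction that changed most, and the 3 genes most like Nfe2l2, Keap1 and Bach1; Txn1, Fech, Ddi2, Fth1, Blvrb, Rara, Mafa and the untested relatives were named after their values were seen, and a few genes that the lists or this rule take in are not reported here. The members, lists and tests were chosen with earlier results of these data known.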

Additional observations from a re-analysis of the deposited data

How the results depend on the processing

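Maff, Mafk and Mafg kept their direction and their call in all 15 alternatives. Without Dark 1 and Light 2 together, 1427 genes and 3 of the 8 regulators were called, Nfe2l2 stood at 0.02 (limma adjusted p = 0.911), Cul3 at -0.45 (0.062) and Nfe2l1 at 0.20 (0.143), and the calls numbered 4 for proteasome subunits, 2 for binding partners, and 0 each for the ligase machinery, KEAP1-independent turnover and NFE2L1 maturation. That fit has fewer samples. With no filter on low values 2606 of 19300 genes were called, Cul3 stood at -0.76 (adjusted p = 0.0647), and calls numbered 0 for the ligase machinery and 2 each for turnover, NFE2L1 maturation and the relatives. Under quantile normalization Nfe2l1 stood at 0.11 and the ligase machinery had 0 calls higher and 1 lower, with Gps1 and Cops8 no longer called; under median centring the ligase machinery had 0 calls, and rescaling to one total put Nfe2l1 at 0.11; the cause was not tested.

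With 1 library left out, 1228 to 5874 genes and 3 to 6 of the 8 regulators were called, and the limma changes ran from -0.93 to -0.57 for Cul3, 0.22 to 0.28 for Nfe2l1 and 0.20 to 0.36 for Keap1. Called members ranged from 0 to 9 in the ligase machinery, 2 to 6 in binding partners, 0 to 6 in turnover, 0 to 8 in NFE2L1 maturation and 4 to 25 in the proteasome.

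Same-numbered libraries deviated together for numbers 1 (r = 0.69 across genes) and 2 (0.64), while number 3 gave -0.09. Light 3 did not correlate best with its own number. On the first principal component, the main axis of difference between libraries, number 3 lay between the others in both groups. Light 1, 2 and 3 stood at -11, -31.7 and -20.9, and Dark 1, 2 and 3 at 36.5, 6.3 and 20.9. An r near 0 can then arise with or without pairing, so that of number 3 cannot decide. The crossed pairs gave -0.68 (Light 1 with Dark 2) and -0.67 (Light 2 with Dark 1). Deviations were taken from each group's mean. With number 3 in the middle, the r of numbers 1 and 2 therefore largely follow from each other, and they are not separate signs of pairing. The main fit took group as its only term, and pairs remain possible. With the replicate block 6690 of 11068 genes were called, 3287 higher and 3403 lower, against 3938 without it. Beside that share, Bach1 at -0.32 (limma adjusted p = 0.00483) and Keap1 at 0.26 (0.00185) passed. Cul3 kept its change of -0.76, with an SE of 0.07 against 0.19 in the main fit. Calls numbered 12 of 16 in the ligase machinery (8 higher, 4 lower) and 7 of 10 in turnover (3 higher, 4 lower). FPKM carry no read depth, so precision rests on 3 libraries a group.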
